A study of Homo sapiens with 3 samples.

Results

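Chromatin immunoprecipitation sequencing was done on cells of the human colorectal cancer line HCT116 expressing VCP with a Flag tag. The samples were 1 library with an antibody to VCP, 1 library with an antibody to Flag and 1 input library, all from fixed chromatin cut with micrococcal nuclease. All 3 were labelled with the same cell line, and the construct's promoter, the clonality of the cells and a culture without the tagged protein were not given in the labels. Peak lists hold no expression values, so the label HCT116 was not checked against marker genes. The genes described here are the protein-coding genes whose symbols start with KDM, KMT, SETD, HDAC, KAT, BRD, BRPF, CHD or ARID followed by a number, or with SMARC. The rule found 101 of 19866 protein-coding genes on chromosomes 1 to 22, X and Y. A gene was counted as marked when the summit of a peak lay within 1 kb of either of its ends, and all positions are 1-based on hg38.

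VCP is an ATPase that uses ubiquitin marks to pull proteins out of complexes, membranes and chromatin. Most proteins encoded by the genes described here act on nucleosomes. Writers add methyl or acetyl groups to histone lysines, erasers remove them, readers bind the marked lysines, and remodelers spend ATP to slide, eject or exchange nucleosomes. The peaks locate precipitated chromatin at the genes that encode these enzymes, and say nothing of the enzymes' own positions.

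Of the 101 genes, 25 were classed as writers, 31 as erasers, 10 as readers, 26 as remodelers and 7 as other ARID DNA-binding proteins. Roles were given by family or complex and not from a measured activity of each protein. BRD3OS and CHD9NB matched by name alone, encode no known chromatin factor, and had no peak. In the VCP list 4 members were marked (3.96%), against 464 of all protein-coding genes (2.34%). In the Flag list 24 members were marked (23.8%), against 2334 of all protein-coding genes (11.7%). Peaks of both lists stood at 3 members (2.97%), KMT2A, KMT2B and BRPF1, against 196 of all protein-coding genes (0.987%). HDAC10 was the only member marked in the VCP list and not in the Flag list. The median length of members was 54.6 kb, against 24.5 kb for all protein-coding genes, and their promoters on file had a median GC content of 66.7% (n = 86) against 62.7% (n = 15843). The part of length, promoter composition or transcription in these counts was not tested.

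Each antibody had 1 library without replicates, so counts and levels carry no spread between cultures and no test was made. Most peaks were small. The lowest background was 1.74 reads in the VCP list (1803 peaks on the chromosomes) and 1.85 reads in the Flag list (5692 peaks), and the median summit held 10 reads for VCP and 11 for Flag. Intervals below are exact 95% Poisson intervals of the reads at a summit and cover counting error only.

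The promoters of the members that carry the finding are shown first, from RefSeq on GRCh38.p14. Each holds 250 bases before and 50 bases after the gene's start, on the gene's strand. KMT2A, KMT2B and BRPF1 are shown because both lists marked them, and KDM1A because its peak had the joint highest fold enrichment among members and lay over the start. Capitals mark the GC box (GGGCGG) and, in KMT2B, the YY1 core (AAGATGGCG), searched on both strands. Neighbouring GC boxes overlap in BRPF1 and KMT2B.
BRPF1, chr3:9731485-9731784, plus strand: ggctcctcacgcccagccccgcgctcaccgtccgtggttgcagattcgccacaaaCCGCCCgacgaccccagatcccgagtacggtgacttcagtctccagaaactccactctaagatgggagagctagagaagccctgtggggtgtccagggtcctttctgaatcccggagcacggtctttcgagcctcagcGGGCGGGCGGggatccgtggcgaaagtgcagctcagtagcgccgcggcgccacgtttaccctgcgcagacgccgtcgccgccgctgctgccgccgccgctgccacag
KMT2A, chr11:118436242-118436541, plus strand: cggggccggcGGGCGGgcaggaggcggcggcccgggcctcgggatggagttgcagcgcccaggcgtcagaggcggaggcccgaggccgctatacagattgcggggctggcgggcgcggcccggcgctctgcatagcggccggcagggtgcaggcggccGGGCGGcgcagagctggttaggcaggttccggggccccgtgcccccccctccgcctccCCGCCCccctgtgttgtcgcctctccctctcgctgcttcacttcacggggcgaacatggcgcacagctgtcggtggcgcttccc
KMT2B, chr19:35717753-35718052, plus strand: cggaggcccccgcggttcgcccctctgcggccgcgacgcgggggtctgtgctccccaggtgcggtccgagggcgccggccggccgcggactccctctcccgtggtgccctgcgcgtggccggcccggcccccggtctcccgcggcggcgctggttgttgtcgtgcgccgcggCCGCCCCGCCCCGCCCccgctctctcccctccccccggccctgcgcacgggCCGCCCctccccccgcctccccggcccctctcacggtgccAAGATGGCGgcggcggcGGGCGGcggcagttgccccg
KDM1A, chr1:23019218-23019517, plus strand: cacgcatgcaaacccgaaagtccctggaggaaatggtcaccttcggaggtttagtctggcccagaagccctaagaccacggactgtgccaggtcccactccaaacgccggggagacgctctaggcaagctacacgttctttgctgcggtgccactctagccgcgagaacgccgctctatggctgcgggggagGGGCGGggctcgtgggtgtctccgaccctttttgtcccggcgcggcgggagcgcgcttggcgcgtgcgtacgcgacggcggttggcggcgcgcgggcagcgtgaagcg

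BRPF1 encodes a bromodomain protein that holds together a histone acetyltransferase complex, and it had the closest match between the antibodies. The gene lies at 9731735 to 9748015 on chromosome 3. Its VCP peak spanned 9731452 to 9731734 and its Flag peak 9731452 to 9731732, so both covered the printed bases before the start and ended just short of it. In the VCP list the summit lay 111 bp before the start, with a fold enrichment of 5.11 and 13 reads (6.92 to 22.2) over a background of 1.74. In the Flag list the summit lay 118 bp before the start, with a fold enrichment of 5.62 and 15 reads (8.40 to 24.7) over a background of 1.85. The summits were 7 bp apart. The read numbers come from different libraries and were not scaled to each other. In the promoter printed above the GC boxes begin at positions -195, -57 and -53, counted back from the gene's start, and both summits fall between the first and the others. By -log10 q the BRPF1 peak ranked 12 of 395 VCP peaks at gene ends and 117 of 2027 Flag peaks at gene ends. It was the only member whose VCP peak reached a q of at most 0.05 (-log10 q 2.38), a level that 0.272% of all protein-coding genes reached in the VCP list.

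KMT2A, which encodes a methyltransferase of histone H3 lysine 4, had the highest -log10 q of any member. The gene lies at 118436492 to 118526832 on chromosome 11. Its VCP peak spanned 118435699 to 118436154, with a fold enrichment of 3.23 and 12 reads (6.20 to 21.0) over a background of 3.02. Its Flag peak spanned 118436098 to 118436467, with 21 reads (13.0 to 32.1) over a background of 3.17, a fold enrichment of 5.27 and -log10 q of 5.94. The peaks overlapped by 57 bp only. The VCP summit lay 452 bp before the start and the Flag summit 164 bp before it, 288 bp apart. The whole VCP peak lay before the printed promoter window, while the Flag summit lay inside it. By -log10 q the VCP peak (0.389) ranked 180 of 395 at gene ends, and the Flag peak ranked 67 of 2027.

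KMT2B, the closest paralog of KMT2A, lies at 35718003 to 35738878 on chromosome 19. Its VCP peak (35717645 to 35717840) had 9 reads (4.12 to 17.1), a fold enrichment of 2.80 and -log10 q of 0.079. Its Flag peak (35717576 to 35717757) had 14 reads (7.65 to 23.5), a fold enrichment of 3.59 and -log10 q of 1.68. The summits were 297 bp before the start in the VCP list and 320 bp before it in the Flag list, 23 bp apart, and the peaks overlapped by 113 bp. Both summits also lay within 1 kb of the transcript end of ZBTB32, 668 bp away for VCP and 645 bp away for Flag, so KMT2B was the nearer gene each time. The KMT2B promoter was the richest in GC of those shown, at 83.3%, and held a YY1 core starting 14 bases after the start. Both summits lay before the printed window, of which the VCP peak covered 88 of 300 bases. The YY1 core lay outside both peaks.

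HDAC10 encodes a deacetylase known to act on polyamines. Its VCP peak on chromosome 22 (50244797 to 50245006) had 10 reads (4.80 to 18.4) over a background of 1.74, a fold enrichment of 4.01 and -log10 q of 0.697. The gene runs on the minus strand, and this summit lay 372 bp beyond its 3′ end. It lay nearer, at 212 bp, to the 5′ end of TUBGCP6, a gamma-tubulin complex gene on the same strand. No Flag summit was listed within 95633 bp of it. When each peak was given to its nearest gene alone, HDAC10 was not counted.

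**Figure D1:**
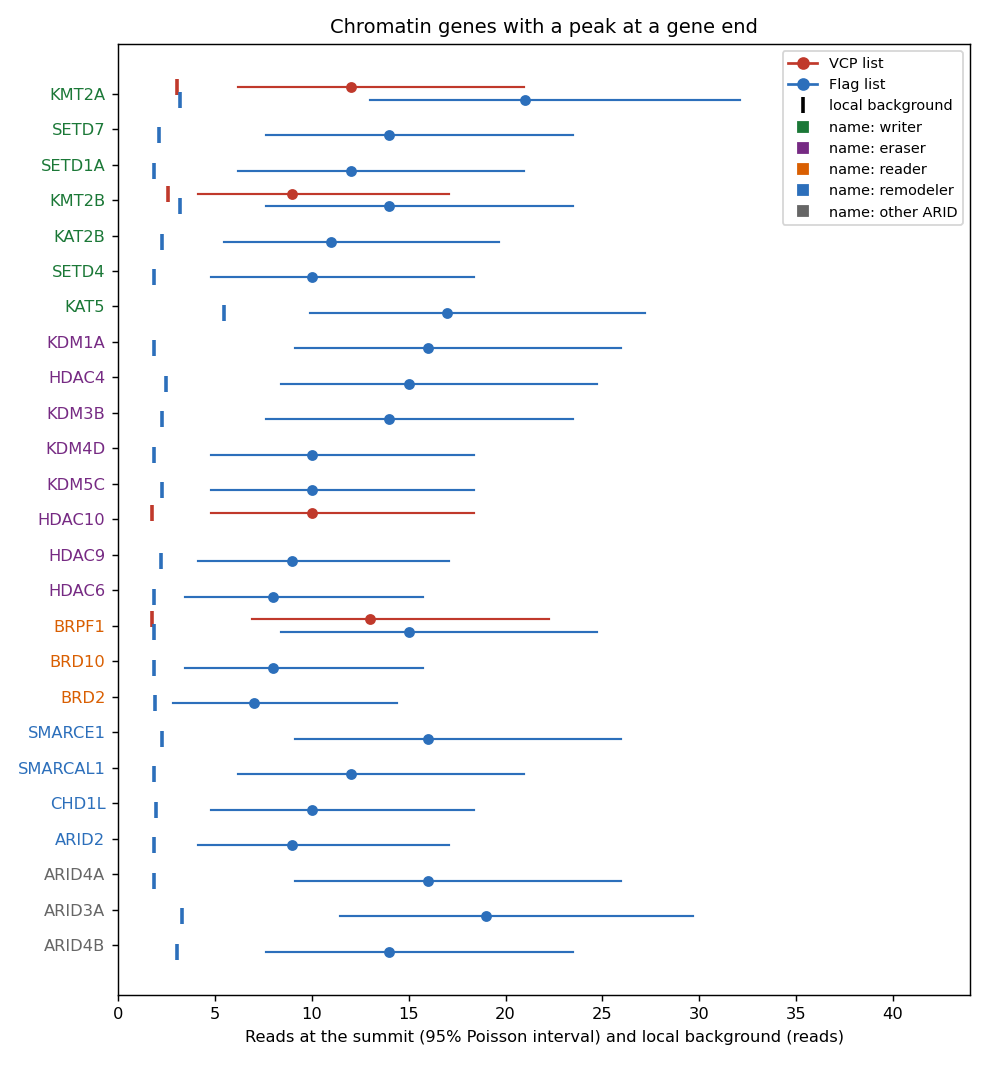
Reads at the summit of the peak with the highest -log10 q for each marked member (points, with 95% Poisson intervals) and the local background (ticks), in the VCP list (red) and the Flag list (blue); gene names are coloured by role. KMT2A has the most reads, 21 in the Flag list, and 4 members have VCP peaks, with 9 to 13 reads.

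Among the 25 writers 2 were marked by VCP peaks (8%, against 2.34% of all protein-coding genes) and 7 by Flag peaks (28%, against 11.7%). The 17 methyltransferase genes held both VCP marks (11.8%) and 5 Flag marks (29.4%), and the 8 acetyltransferase genes held 2 Flag marks (25%). SETD7, a methyltransferase of histone and other proteins, had 2 Flag peaks inside the gene, at 734 bp from its 5′ end (fold enrichment 4.79, 14 reads, 7.65 to 23.5) and at 200 bp (2.48, 15 reads, 8.40 to 24.7). The read numbers of the SETD7 peaks were alike, and the backgrounds were 2.13 reads at the stronger and 5.44 at the weaker. SETD1A, a methyltransferase of histone H3 lysine 4 like KMT2A, also had 2 Flag peaks, with summits 600 bp (fold enrichment 4.57, 12 reads, 6.20 to 21.0) and 121 bp (3.46, 9 reads, 4.12 to 17.1) before its start. Of these the more distant one was the stronger. KAT5, the catalytic subunit of the TIP60 acetyltransferase complex, had Flag summits 59 bp (2.79, 17 reads, 9.90 to 27.2) and 461 bp (3.03, 9 reads, 4.12 to 17.1) outside the gene. KAT2B, another acetyltransferase gene (3.67, 11 reads), and SETD4, a SET domain gene (3.86, 10 reads), each had 1. Their -log10 q of 1.29 fell just short of a q of 0.05. The writers without a peak of either list were KMT2C, KMT2D, KMT2E, KMT5A, KMT5B, KMT5C, SETD1B, SETD2, SETD3, SETD5, SETD6, SETD9, KAT2A, KAT6A, KAT6B, KAT7, KAT8 and KAT14.

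Among the 31 erasers 1 was marked in the VCP list (HDAC10, 3.23%, against 2.34% of all protein-coding genes). No eraser was in both lists, against 0.987% of all protein-coding genes, a share at which a group of 31 would hold few. The Flag list marked 7 erasers (22.6%, against 11.7% of all protein-coding genes). KDM1A, a demethylase of histone H3 lysine 4 and part of the CoREST complex, led them with 16 reads (9.15 to 26.0) over a background of 1.85, a fold enrichment of 5.97 and -log10 q of 5.47. The peak spanned 23019270 to 23019506 on chromosome 1 and covered 237 of the 300 promoter bases printed above, and the nearest VCP summit was 197614 bp away. HDAC4, a class IIa deacetylase gene, had a fold enrichment of 4.62 and 15 reads (8.40 to 24.7), with the summit 122 bp outside its outer 5′ end. The start that RefSeq gives for the HDAC4 promoter lies far inside the gene, which puts that summit at position -126990. The demethylase gene KDM3B followed at 4.59 with 14 reads (7.65 to 23.5). KDM4D (3.86, 10 reads) shared its peak with CWC15, a spliceosome gene that faces the other way. Its summit lay 114 bp inside the 5′ end of KDM4D and 267 bp from the 5′ end of CWC15. KDM5C (3.37, 10 reads) had a summit 84 bp outside its 5′ end, and 522 bp from the 3′ end of its neighbour IQSEC2. HDAC9 (3.11, 9 reads) and HDAC6 (3.16, 8 reads) were the weakest. The class I deacetylase genes HDAC1, HDAC2, HDAC3 and HDAC8 had no peak at an end, and neither did HDAC5, HDAC7, HDAC11, KDM1B, KDM2A, KDM2B, KDM3A, KDM4A, KDM4B, KDM4C, KDM4E, KDM4F, KDM5A, KDM5B, KDM5D, KDM6A, KDM6B, KDM7A and KDM8.

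Among the 10 readers BRPF1 was marked in both lists, and BRD10 and BRD2 in the Flag list alone. That is 10% of readers for VCP and 30% for Flag, against 2.34% and 11.7% of all protein-coding genes. BRD10 had a fold enrichment of 3.16 and 8 reads (3.45 to 15.8). BRD2, a BET-family gene that binds acetylated histones, had 7 reads (2.81 to 14.4) and a fold enrichment of 2.77, the fewest reads of any peak at a member's end. Its summit lay 993 bp before the start, just inside the limit. A VCP peak lay in the body of BRD2, 1958 bp inside the start, with 9 reads and a fold enrichment of 2.94. These BRD2 summits were 2951 bp apart. Readers without a peak at an end included BRD1, BRD3, BRD7, BRD8, BRD9 and BRPF3.

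Among the 26 remodelers 0 were marked by VCP peaks, against 2.34% of all protein-coding genes, and 4 by Flag peaks (15.4%, against 11.7%). SMARCE1, a subunit of the SWI/SNF complex, had a fold enrichment of 5.20 and 16 reads (9.15 to 26.0), with the summit 330 bp before its start on chromosome 17. SMARCAL1, whose product rewinds DNA at stalled replication forks, had 2 Flag peaks (4.57 with 12 reads and 2.75 with 13 reads), with summits 268 bp before and 203 bp after the start. CHD1L, a remodeler activated by poly(ADP-ribose), had 2 Flag peaks (3.70 with 10 reads and 2.33 with 14 reads) that also lay within 1 kb of the 5′ end of the divergent gene PRKAB2. The weaker summit stood between the genes and the stronger 448 bp inside CHD1L. ARID2, a SWI/SNF subunit gene (3.51, 9 reads), had its summit 929 bp inside an end. Of the 16 ATPase genes 2 had a Flag mark (12.5%), close to the share of all protein-coding genes (11.7%). The catalytic genes SMARCA2 and SMARCA4 of SWI/SNF, SMARCA1 and SMARCA5 of ISWI and CHD3, CHD4 and CHD5 of NuRD had no peak at an end. CHD1, CHD2, CHD6, CHD7, CHD8, CHD9, SMARCAD1, SMARCB1, SMARCC1, SMARCC2, SMARCD1, SMARCD2, SMARCD3, ARID1A and ARID1B had none either. CHD8 came nearest, with a Flag summit 1083 bp from an end (fold enrichment 3.61, -log10 q 2.55).

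The 7 other ARID genes held 3 Flag marks (42.9%, against 11.7% of all protein-coding genes) and 0 VCP marks (against 2.34%). ARID4A and ARID4B encode related subunits of the SIN3 deacetylase complex, and both were marked. ARID4A had a fold enrichment of 5.97 and 16 reads (9.15 to 26.0), the same values as KDM1A because both rest on the same number of reads over the lowest background. Its summit lay 517 bp before the start, outside the printed kind of promoter window. ARID4B had a fold enrichment of 3.72 and 14 reads (7.65 to 23.5), 850 bp outside the gene. ARID3A, a DNA-binding transcription factor gene, had the widest member peak, 755 bp, with a fold enrichment of 4.67 and 19 reads (11.4 to 29.7). ARID3B, ARID3C, ARID5A and ARID5B had no peak at an end.

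**Figure D2:**
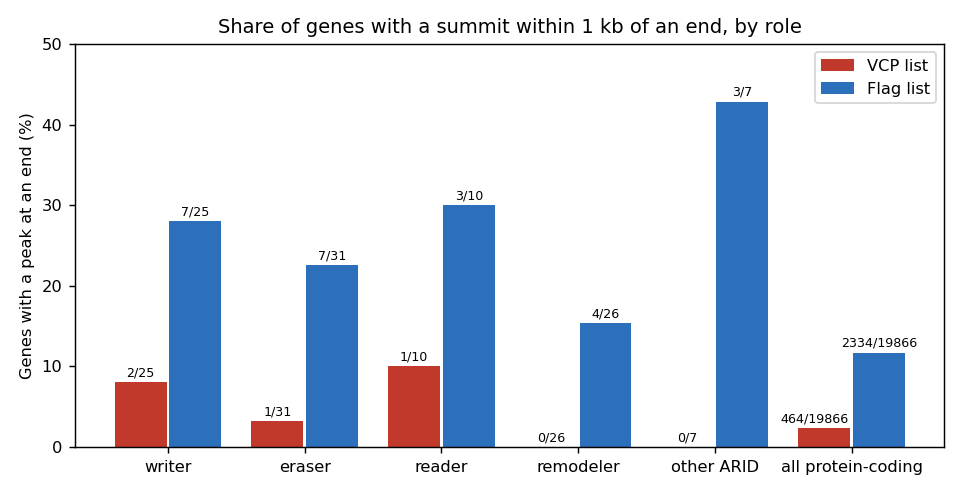
Share of genes with a summit within 1 kb of an end (%), by role and for all protein-coding genes, in the VCP list (red) and the Flag list (blue), with the counts above the bars; BRD3OS and CHD9NB are not drawn. The Flag share runs from 4 of 26 remodelers to 3 of 7 other ARID genes, and the VCP marks are 2 writers, 1 eraser and 1 reader.

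The peaks at members had fold enrichments near the median of all peaks at gene ends. The 4 VCP peaks at members had a median fold enrichment of 3.62, against 3.61 for the 395 VCP peaks at gene ends. The 29 Flag peaks at members had a median of 3.70, against 3.67 for the 2027 Flag peaks at gene ends. Of the 29 Flag peaks at members, 13 had a q of at most 0.05 (44.8%), against 914 of all 2027 (45.1%). In genes, 13 of the 101 members kept a Flag peak at that level (12.9%), against 5.53% of all protein-coding genes. Among members the fold enrichments lay between 2.80 and 5.11 for VCP and between 2.33 and 5.97 for Flag. The highest Flag value at any gene end was 25.3.

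**Figure D3:**
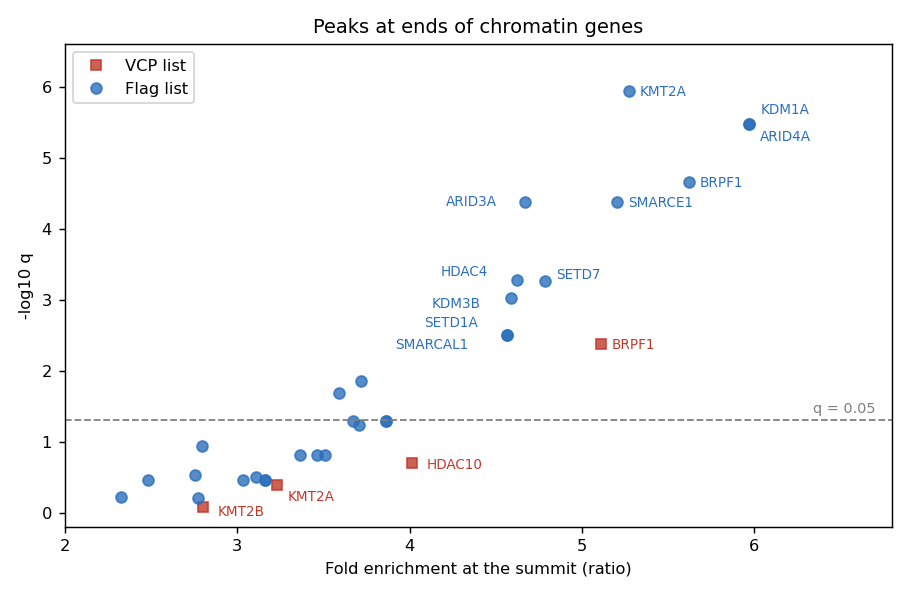
Fold enrichment at the summit (ratio) against -log10 q for each peak at an end of a member, in the VCP list (red squares) and the Flag list (blue circles); the dashed line is q = 0.05. BRPF1 alone is above the line in the VCP list, and KMT2A, KDM1A and ARID4A are highest in the Flag list; some points coincide because reads are whole numbers.

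Most marks lay at outer 5′ ends. Of the 29 Flag peaks, 27 lay at the 5′ end, 0 at the 3′ end and 2 at ends of genes without a strand on file (ARID2 and ARID3A). The outer end is not always the start that RefSeq gives for the promoter. Of the 27, 22 summits lay within 1 kb of that start, and the other 5, at HDAC4, HDAC9, ARID4B and CHD1L (2 peaks), lay farther from it, at positions between -1542 (ARID4B) and -409096 (HDAC9). Of the 4 VCP peaks 3 lay at the 5′ end and 1, that of HDAC10, at the 3′ end. All 4 VCP summits and 19 Flag summits lay outside the gene, and 10 Flag summits lay inside. The median distance to the member's own end was 334.5 bp for the VCP peaks of members and 213 bp for the Flag peaks. For all peaks at gene ends, the median distance to the nearest gene end was 170 bp for VCP and 173 bp for Flag. These measures differ for the VCP peak of HDAC10, counted at 372 bp although it lay 212 bp from TUBGCP6. The VCP medians are therefore not directly comparable. Flag summits within 500 bp numbered 23 of 29. SETD1A, SETD7, KAT5, SMARCAL1 and CHD1L carried 2 Flag peaks each, which accounts for 29 peaks at 24 genes. Neighbouring protein-coding genes shared 2 of the 4 VCP peaks and 5 of the 29 Flag peaks.

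**Figure D4:**
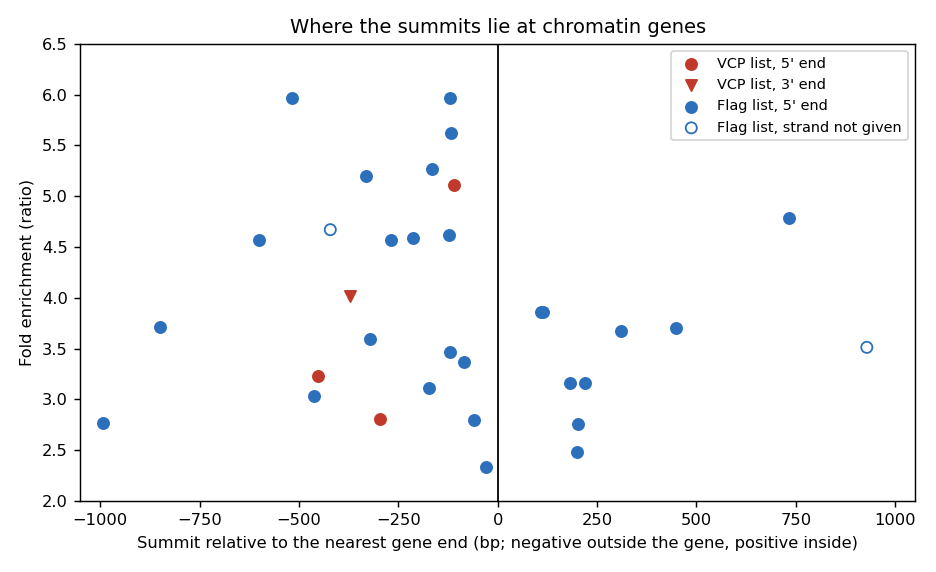
Summit position relative to the nearest end of the member (bp, negative outside the gene and positive inside) against fold enrichment (ratio), in the VCP list (red) and the Flag list (blue); the triangle is the 3′ end of HDAC10 and open circles are genes without a strand on file. The 4 VCP summits and 19 of the 29 Flag summits lie outside the gene.

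Promoter sequence was on file for 22 of the 24 members with a Flag mark. Their median promoter GC content was 65.8%, against 68.8% for the 64 members with a sequence and no Flag mark, and the ranges overlapped. The GC box was found in 17 of the 22 and in 61 of all 86 member promoters, against 58.5% of 15843 protein-coding promoters of the same length. CCAAT was found in 7 of the 22, against 36.4% of all promoters, and the ETS letters CCGGAAG in 4 (CHD1L, KAT5, KDM4D and SETD4), against 14.2%. The YY1 core was found in 3 (KAT5, KDM5C and KMT2B), against 2.74%, and the NRF1 core GCGCATGCG in 2 (BRD10 and SETD4), against 2.76%. The E-box CACGTG was found in KAT5 alone (8.88% of all promoters) and the AP-1 letters TGANTCA in HDAC9 alone (5.75%). The CRE TGACGTCA (2.59%) and TATAAA (9.63%) were found in 0 of the 22. Both strands were searched throughout. These matches are descriptions of short windows, and the window does not hold the summit at every gene. For HDAC4, HDAC9, ARID4B and CHD1L it lies over 1 kb from the summit.

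Inside genes, more than 1 kb from both ends, 4 members held a VCP peak (3.96%, against 2.35% of all protein-coding genes) and 13 held a Flag peak (12.9%, against 6.75%). The median length was 56.9 kb for the members with a Flag peak in the body and 52.0 kb for those without, and the part of length in these shares was not tested. ARID3B was the gene where both lists had a peak in the body, on chromosome 15. The VCP peak (74546218 to 74546406) had a fold enrichment of 4.38 and 11 reads (5.49 to 19.7), and the Flag peak (74546163 to 74546577) had 5.27 and 14 reads (7.65 to 23.5). The ARID3B VCP peak lay wholly within the Flag peak, an overlap of 189 bp. The other VCP body peaks, at HDAC11 (3.18), SMARCA2 (3.07) and BRD2 (2.94), overlapped no Flag peak. In the whole VCP list, 196 of 1803 peaks overlapped a Flag peak, so most did not. Among the Flag body peaks KDM3A, a demethylase of histone H3 lysine 9, had a fold enrichment of 4.32 and 19 reads (11.4 to 29.7). Its summit lay at position -446 from the start that RefSeq gives for the KDM3A promoter, a start inside the outer ends of the gene. CHD2 held 2 such Flag peaks (4.46 and 4.26), KDM6B 2 (4.05 and 2.53) and SMARCD3 1 (4.57). ARID1A (3.86) and ARID1B (3.67 and 3.06), alternative subunits of one form of SWI/SNF, held Flag peaks in the body and none at an end.

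Genes of partner subunits and other chromatin regulators outside the naming rule were also marked. Of 146 such genes, 4 had a VCP peak at an end (2.74%, against 2.34% of all protein-coding genes) and 35 a Flag peak (24.0%, against 11.7%). The VCP share was thus close to that of all genes. RBBP5 encodes a core subunit of the complexes in which KMT2A, KMT2B and SETD1A work. This gene was the only one of the 146 marked in both lists, against 196 of 19866 protein-coding genes (0.987%). It had a fold enrichment of 3.0 with 11 reads (5.49 to 19.7) in the VCP list and 3.76 with 13 reads (6.92 to 22.2) in the Flag list, and the peaks overlapped by 139 bp. The other VCP marks were at PHF10 of SWI/SNF (4.74, 12 reads), TRRAP of acetyltransferase complexes (3.36, 11 reads) and the methyltransferase gene EHMT1 (2.75, 10 reads). The highest Flag values by -log10 q were at the methyltransferase gene ASH1L and the SWI/SNF gene SS18 (4.91 and 18 reads each), the remodeler gene EP400 (5.39, 15 reads), the arginine methyltransferase gene PRMT1 (5.33, 15 reads), and the sirtuin genes SIRT1 and SIRT2 (4.90 and 15 reads each, a tie). By group, 3 of 11 COMPASS partners, 4 of 14 SWI/SNF partners, 5 of 21 ISWI, INO80 and SRCAP partners, 4 of 19 Polycomb genes, 7 of 17 other methyltransferases, 4 of 23 other acetyltransferases and their partners, 2 of 5 sirtuins and 6 of 17 other readers had a Flag mark. The Flag shares of these groups ran from 17.4% to 41.2%. The 19 NuRD, SIN3 and CoREST partners had 0 Flag marks and 0 VCP marks, against 11.7% and 2.34% of all protein-coding genes. A group this small would hold few marks at those shares.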

How the data were processed

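The values come from 1 peak list per antibody, VCP and Flag, while the input library was not analysed here. MACS2 2.1.0, Bowtie 1.1.2, Trimmomatic 0.33 and bcl2fastq 2.17 are named in the submitters' processing notes, with build hg38 and no settings. The deposited fold enrichment is a ratio of summit reads to the local background, and the deposited -log10 p and -log10 q are the peak caller's. The deposited score is 10 times -log10 p, rounded down, and was not used. The lowest -log10 p was 3.00 in each deposited list, so weak peaks are included. Peaks were called per library.

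Reads and background of each peak were recovered as the whole number whose Poisson tail, with a pseudocount of 1 read, gives the deposited -log10 p and fold; all 1803 and 5692 peaks matched within 0.001. Fold enrichment was used within a list only.

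Genes came from RefSeq GRCh38.p14, of which 19866 protein-coding ones on the chromosomes were kept. Strand was known from the promoter table for 15843 of these and for 86 of the 101 members. Scripts ran in Python 3.11.15 with scipy 1.17.1 and pandas 2.3.3, and were tested on simulated data. Members, lists, motifs and roles were chosen with earlier results of these data known. BRD10 was given its role after the gene table was read. Some members are not reported here by name. Named genes were every member with a peak at an end, members without one by name within their role, members with the body peaks described, the partner genes with a VCP peak, and the 5 partner genes highest by -log10 q in the Flag list, with a tie added. The alternatives were other windows, q thresholds, ways of assigning peaks, list sizes and overlap rules.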

Additional observations from a re-analysis of the deposited data

How the results depend on the processing

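The counts rest on peak thresholds more than on positions. At a q of at most 0.05, 1 member was marked in the VCP list, 13 in the Flag list and 1 in both, and 1 VCP peak overlapped a Flag peak. At -log10 q of at least 5 these counts were 0, 3, 0 and 0, and the median fold enrichment of the Flag peaks at members was 5.97; no VCP median could be given. When only as many Flag peaks were kept as there are VCP peaks, 13 members had a Flag mark. With a 3 kb window 5 members were marked in both lists. With that window 6 members were marked by VCP peaks and 30 by Flag peaks. At a q of at most 0.05, VCP peaks marked 0.99% of members against 0.272% of all protein-coding genes. For Flag peaks these shares were 12.9% and 5.53%. The share of all protein-coding genes was not computed for the other counts of this section, so they cannot be set against it. Under the remaining alternatives each value stayed within 1.5 times its reported one, with 3 or 4 members marked by VCP peaks and 19 to 26 by Flag peaks. These were a 500 bp window, gene starts only, any base of the peak, each peak for its nearest gene, leaving out name-only matches, and for overlaps, summits within 200 bp or at least 0.5 of the shorter peak covered. With gene starts only, 19 members had a Flag mark, out of the 86 of 101 members with a start on file. ARID2 and ARID3A, both with a Flag mark, had no start on file and could not be counted there. Summits within 200 bp and the coverage rule each left 2 overlapping members. No paired analysis was possible because each antibody had 1 library. Summits of 7 to 21 reads limit how finely peaks can be ranked.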
